A study of Homo sapiens with 24 samples.

Results

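MDA-MB-231 breast cancer cells carrying the dSRF form of MRTF-A were compared with their control line in 2 cultures, on matrigel (3D) and on plastic plates (2D), and the quantity described here is how far the difference between the lines itself differed between the cultures. For each gene it is the 3D difference (3D dSRF minus 3D control) minus the 2D difference (2D dSRF minus 2D control). The libraries were chosen by their titles and number 12 of the 24 in the series, 3 in each of the groups 3D dSRF, 3D control, 2D dSRF and 2D control. MDA-MB-231 is an established line from a mesenchymal-type breast cancer. Every group, controls included, received 1 ug/ml doxycycline for 72 h before RNA collection, since the drug induces the MRTF-A transgene, and all cells grew in medium with 10% serum. The 3D cells sat on matrigel, a gel of basement membrane proteins, with 2% matrigel in their medium. The labels do not spell out what dSRF stands for, or dSAP, the name of another form of the protein. Each form is present as 1 engineered line, and the titles number 3 replicates a group without saying whether these were separate cultures. The p-values therefore measure the spread between these libraries, which may be technical. In 16 of the 24 libraries the genotype field differs from the title, and the titles were used.

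MRTF-A, encoded by MRTFA, is a coactivator that monomeric actin holds in the cytoplasm. When actin assembles into filaments, MRTF-A enters the nucleus and works with serum response factor (SRF) at CArG boxes near genes for contractile and cytoskeletal proteins. YAP works with the TEAD factors on a partly overlapping set of genes, CCN1, CCN2 and ANKRD1 among them, and cells on a soft gel or on rigid plastic are known to differ in both pathways.

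Library totals lay between 13968829 and 23023415 counts, with 17161 to 18958 genes above 0. The overexpressed gene was checked first. Levels are given as CPM, counts per 1000000 counts of the scaled library. MRTFA stood at 664, 4840 and 4857 CPM in 3D dSRF, against 29.5, 28.8 and 29.2 CPM in 3D control. On plates MRTFA stood at 3180, 3170 and 3361 CPM in 2D dSRF, against 34.9, 38.3 and 39.1 CPM in 2D control. Thus MRTFA was high in every dSRF library, but the library labelled 3D dSRF 1 held far less of it than the other two. Over the 3298 genes that differed at least 2-fold between 3D dSRF 2 and 3 and the 3D control libraries, 3D dSRF 1 showed a median of 57.7% of that log2 difference (quartiles 34.8% and 81.3%). Results are therefore given with and without it. Cell identity was checked too. Of the markers of a mesenchymal breast cancer line, VIM averaged 1372 CPM in 3D dSRF, 1696 in 3D control, 1276 in 2D dSRF and 1482 in 2D control. Among markers of other cell types, DCN and THY1 (fibroblast), CLDN5 (endothelium), TFF3 and AGR2 (luminal epithelium) had 0 counts in the 12 libraries, and PTPRC (leukocyte) never exceeded 2. Other members were detected. VWF and KDR carried most of the summed endothelial level, which was 29.09 to 41.22 CPM in 3D dSRF and 1.461 to 1.972 CPM in 3D control, and 27.71 to 29.37 CPM in 2D dSRF and 3.742 to 4.366 CPM in 2D control. CD68 carried most of the leukocyte sum, which was 150.2 to 215.9 CPM in 3D dSRF and 58.86 to 64.83 CPM in 3D control, and 198.1 to 225.7 CPM in 2D dSRF and 51.43 to 60.35 CPM in 2D control. The fibroblast sum, with COL1A1, was 18.31 CPM in 3D dSRF 1, 115 and 131.6 CPM in the other 3D dSRF libraries, and 44.66 to 63.99 CPM elsewhere. The part of these markers in the results was not tested. In these bulk samples, fewer cells of a kind and less RNA per cell cannot be told apart.

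Of 14986 genes tested, 4379 (29.2%) had a dSRF effect that differed between the cultures, at an adjusted p under 0.05 in edgeR's quasi-likelihood test. The effect was more positive on matrigel for 2197 genes (14.7% of genes tested) and more negative for 2182 (14.6%), and it differed at least 2-fold for 998. Without 3D dSRF 1, 6680 of 15246 genes passed (43.8%), 3027 more positive (19.9%) and 3653 more negative (24%). Of the calls with all libraries, 4161 (95.0%) were made again without that library with the same sign. The dSRF effects themselves were broad, with 9948 genes called on matrigel (66.4%) and 9885 on plates (66.0%). Both effects were called with the same sign for 7414 genes and with opposite signs for 426.

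**Figure D1:**
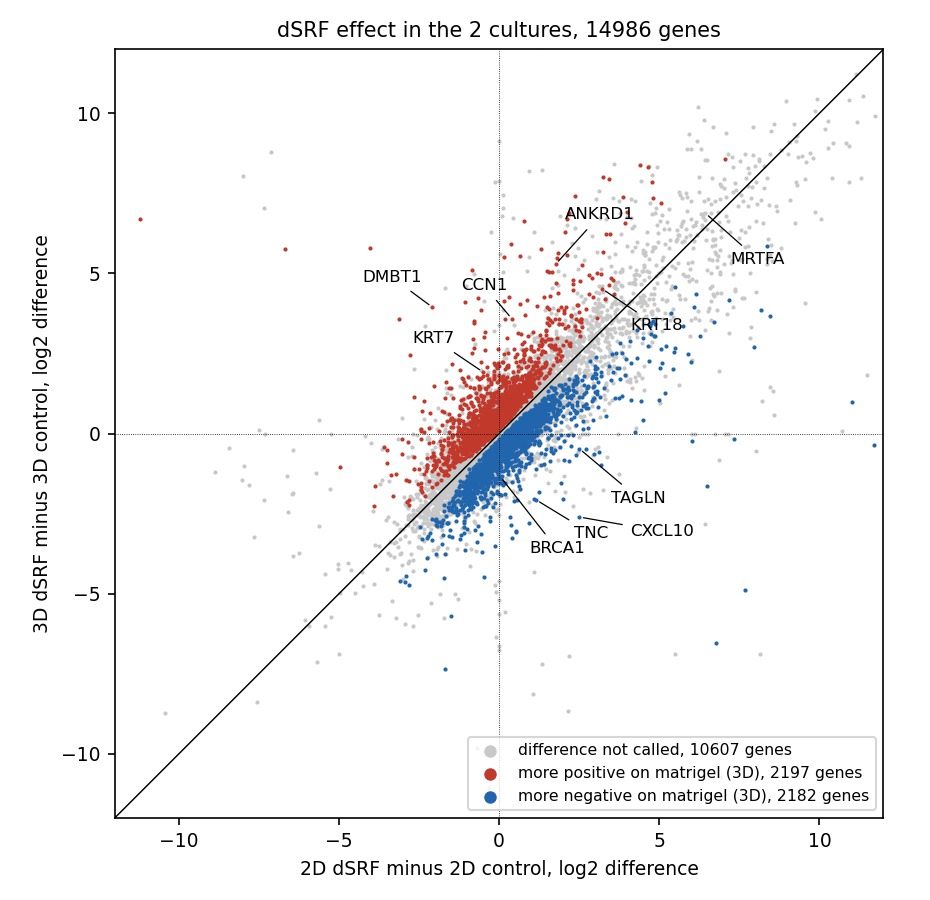
Each point is 1 of the 14986 genes tested, with the dSRF effect on plates (2D dSRF minus 2D control, log2) on the x axis and on matrigel (3D dSRF minus 3D control, log2) on the y axis; 8 genes lie outside the axes. Red points (2197) lie above the diagonal and blue points (2182) below it, where the effects differed between cultures at an adjusted p under 0.05; grey points were not called.

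The control line changed with culture for most of these genes. Of the 2197 more positive genes, 1897 (86.3%) were lower in 3D control than in 2D control, where 24.4% of all genes were lower. Of the 2182 more negative genes, 1795 (82.3%) were higher in 3D control than in 2D control, against 23% of all genes. In the dSRF line, where 7.19% of all genes were higher in 3D and 9.84% lower, the 3D and 2D libraries did not differ at the threshold for 1604 of the more positive genes (73.0%) and for 1601 of the more negative ones (73.4%). Across all genes, culture changed 2551 in the dSRF line (17.0%) and 7097 in the control line (47.4%). These shares share libraries with the difference itself and describe it. They depend on 3D dSRF 1. Without it, 7351 genes changed with culture in the dSRF line (48.2%), and the dSRF line was not called for 1238 of 3027 more positive genes (40.9%) and 1311 of 3653 more negative ones (35.9%). The control line was then lower on matrigel for 2322 of those 3027 (76.7%, against 29.9% of all genes) and higher for 2495 of those 3653 (68.3%, against 28.8%).

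**Figure D2:**
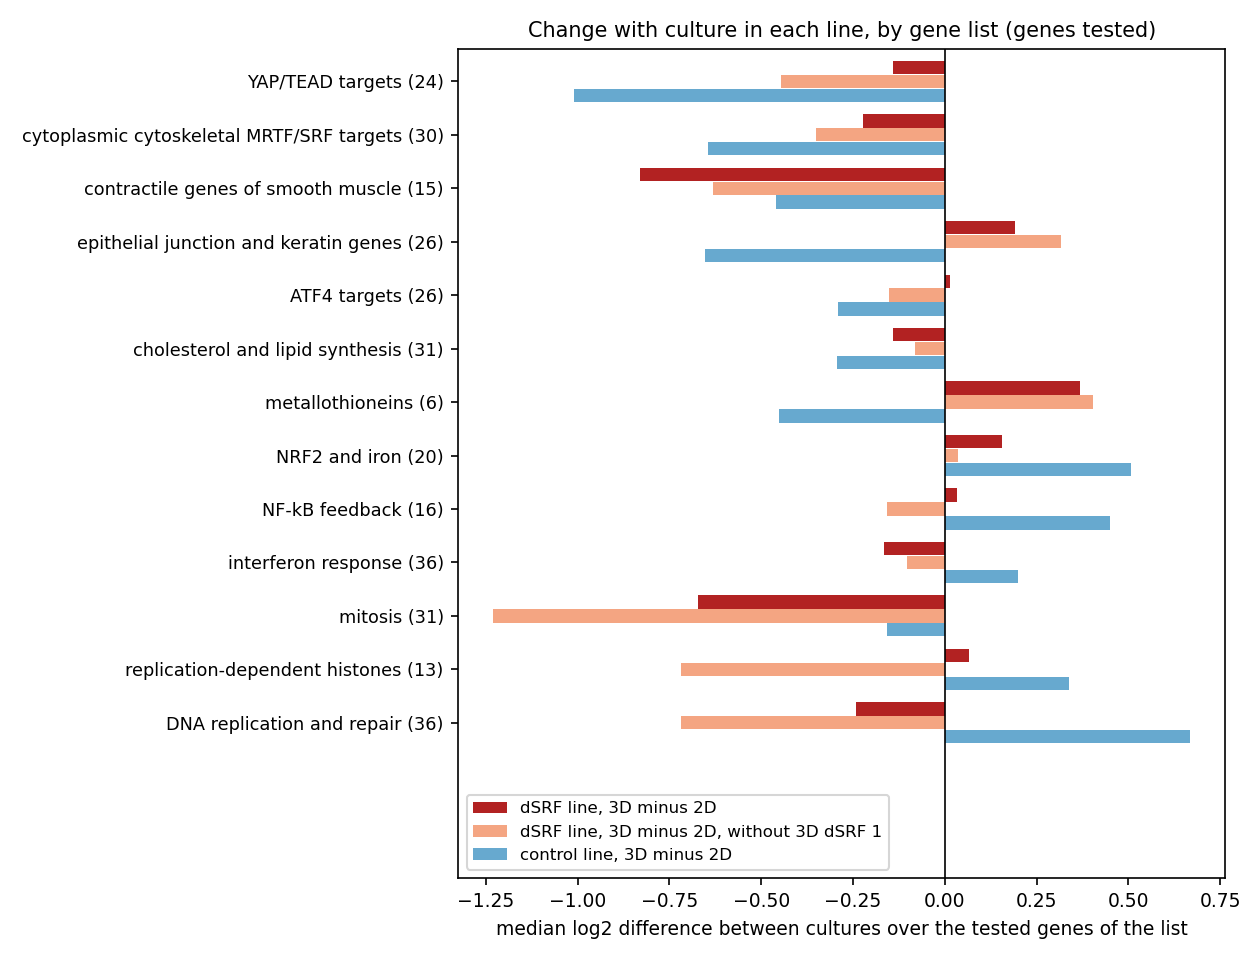
Bars give the median log2 difference between matrigel and plates (3D minus 2D, x axis) over the tested genes of each list, whose number stands in brackets: dark red for the dSRF line, light red for the dSRF line without 3D dSRF 1, blue for the control line. YAP/TEAD targets have a median of -0.14 in the dSRF line (-0.45 without 3D dSRF 1) and -1.01 in the control line; DNA replication and repair genes have -0.24 (-0.72) and 0.67.

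YAP/TEAD targets formed one of the clearest groups. Of 24 tested, the dSRF effect was more positive on matrigel for 15 and more negative for 1, shares of all genes being 14.7% and 14.6%. The median was 0.82 on the log2 scale, beside -0.01 over all genes. Without 3D dSRF 1 the counts were 17 and 2, the median 0.36 and the shares of all genes 19.9% and 24%. The shares of all genes, with and without that library, apply to every list below. List counts near them do not set a list apart from other genes. In the control line 19 of the 24 were lower on matrigel than on plates (24.4% of all genes). In the dSRF line 4 were lower with all libraries (9.84% of all genes) and 18 without 3D dSRF 1. With that library left out, 48.2% of all genes changed with culture in the dSRF line, counting both directions. The promoters of CCN2, which encodes a matricellular growth factor, and of ANKRD1, an ankyrin repeat protein that shuttles to the nucleus, are shown because both hold the TEAD motif. The stretches are the 250 bases before the transcription start on the minus strand, from RefSeq (GRCh38.p14), for CCN2 at chr6:131951373-131951622 and for ANKRD1 at chr10:90921088-90921337. Capitals mark matches to the motif GGAATG, searched on both strands.
CCN2: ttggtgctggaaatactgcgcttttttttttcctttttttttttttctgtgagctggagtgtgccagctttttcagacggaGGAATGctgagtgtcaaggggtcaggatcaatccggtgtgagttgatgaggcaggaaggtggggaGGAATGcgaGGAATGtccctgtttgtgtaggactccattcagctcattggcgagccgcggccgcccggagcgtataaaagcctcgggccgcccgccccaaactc
ANKRD1: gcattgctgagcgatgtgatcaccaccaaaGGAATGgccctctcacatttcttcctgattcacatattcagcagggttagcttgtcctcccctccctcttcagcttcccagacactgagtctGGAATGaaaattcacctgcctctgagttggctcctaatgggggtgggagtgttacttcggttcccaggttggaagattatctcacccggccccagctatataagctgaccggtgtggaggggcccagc
In CCN2 the matches begin 169, 104 and 95 bases before the start, and in ANKRD1 220 and 128. Windows of 300 bases, running from 250 before to 50 after a start, were found for 17 of the 24 genes, and 10 of the 17 (58.8%) held the motif. Over 27303 genes with such a window the share was 16.7%. The list is made of textbook targets of these factors, so that share describes the list.

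CCN1, a secreted matricellular protein, stood at 2722, 1090 and 1094 CPM in 3D dSRF, against 135, 142 and 133 CPM in 3D control. On plates it stood at 1897, 1769 and 2000 CPM in 2D dSRF, against 1409, 1482 and 1408 CPM in 2D control. The 3D control libraries lay far below every other group, and the 2D groups lay close together without overlapping. The dSRF effect differed by 3.18 ± 0.32 (log2, standard error, as for every fitted difference below; adjusted p = 5.25e-07), and by 2.60 without 3D dSRF 1. ANKRD1 stood at 1029, 370 and 393 CPM in 3D dSRF, against 14.7, 15.3 and 15.9 CPM in 3D control. In 2D it stood at 781, 811 and 730 CPM in 2D dSRF, against 206, 257 and 221 CPM in 2D control. Here dSRF libraries were above control in both cultures, by a wider gap on matrigel (difference 3.52 ± 0.37, adjusted p = 9.99e-07, 2.87 without 3D dSRF 1). CCN2 stood at 125, 28.1 and 25.7 CPM in 3D dSRF, against 9.63, 10.7 and 11.4 CPM in 3D control. On plates CCN2 stood at 83.4, 85.8 and 100 CPM in 2D dSRF, against 71.4, 77.0 and 76.7 CPM in 2D control. The library labelled 3D dSRF 1 was the highest of the 12 and set much of the value: the difference was 2.24 ± 0.55 (adjusted p = 0.00443) with it and 1.07 (adjusted p = 9.01e-08) without it.

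Further members moved the same way. LATS2, a kinase that inhibits YAP, had a difference of 1.38 ± 0.19 (adjusted p = 1.55e-05). CRIM1, a membrane protein that binds growth factors, had 1.05 ± 0.15 (adjusted p = 2.04e-05), with opposite dSRF effects of 0.39 on matrigel and -0.66 on plates. The CRIM1 effect on matrigel was 0.18 without 3D dSRF 1. TEAD1, one of the DNA-binding partners of YAP, had opposite effects as well, 0.57 on matrigel and -0.41 on plates (difference 0.99 ± 0.12, adjusted p = 7.24e-06). AJUBA, a junction protein that restrains LATS kinases, had 1.11 ± 0.20 (adjusted p = 3.81e-04), and AMOTL2, an angiomotin that binds YAP, had 1.46 ± 0.31 (adjusted p = 0.00132; 0.88 without 3D dSRF 1).

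**Figure D3:**
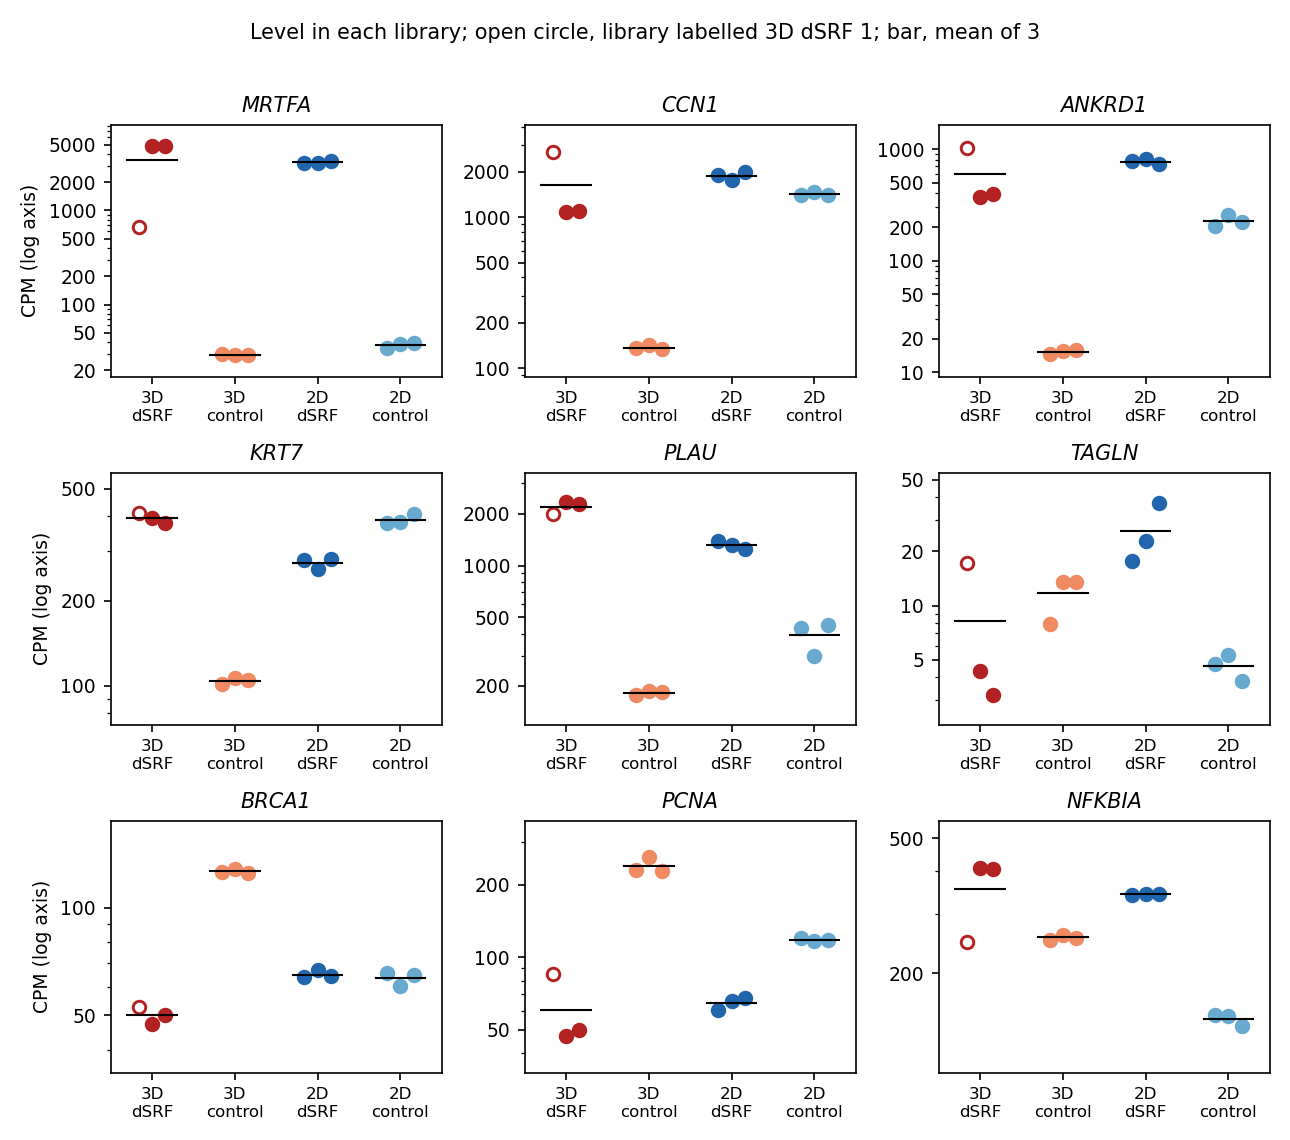
Levels of 9 genes in CPM (log axis) in each of the 12 libraries, by group on the x axis; open circles mark the library labelled 3D dSRF 1 and horizontal bars the mean of 3 libraries. For CCN1 and ANKRD1 the 3D control libraries lie lowest, for BRCA1 and PCNA highest, and for MRTFA, TAGLN and NFKBIA the library labelled 3D dSRF 1 lies apart from the other 3D dSRF libraries.

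Of 8 tested genes of MRTF, SRF and partners, 2 had a more positive and 1 a more negative effect (3 and 3 without 3D dSRF 1). FHL2, a LIM-domain protein that binds SRF and is a target of it, was the leading gene, at 60.3, 44.3 and 45.0 CPM in 3D dSRF, against 13.6, 16.2 and 15.8 CPM in 3D control. On plates FHL2 stood at 45.2, 47.8 and 48.7 CPM in 2D dSRF, against 38.0, 41.0 and 44.8 CPM in 2D control. The dSRF groups stood at nearly one level in both cultures, and only the control line was low on matrigel (difference 1.51 ± 0.14, adjusted p = 1.1e-07). One of 4 FHL2 starts listed in RefSeq (GRCh38.p14, minus strand) has a CArG box, in capitals, 59 bases before the start in chr2:105399052-105399301.
FHL2: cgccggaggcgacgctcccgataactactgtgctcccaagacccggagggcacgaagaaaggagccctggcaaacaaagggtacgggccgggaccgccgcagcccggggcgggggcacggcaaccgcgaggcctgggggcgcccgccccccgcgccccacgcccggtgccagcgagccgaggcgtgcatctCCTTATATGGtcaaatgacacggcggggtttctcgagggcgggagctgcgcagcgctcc
A CArG box was present in the 300-base windows of 4 of 13 contractile genes (30.8%) and of 1.6% of all genes. That list too is made of textbook targets, so the share describes the list. SRF itself did not pass: it stood at 122, 92.4 and 88.2 CPM in 3D dSRF, against 82.8, 79.1 and 79.9 CPM in 3D control. In 2D SRF stood at 122, 117 and 134 CPM in 2D dSRF, against 112, 112 and 122 CPM in 2D control, with a difference of 0.22 ± 0.12 (adjusted p = 0.183). MRTFB, the paralogue of MRTFA, was below control in both cultures and more so on matrigel, at 22.5, 22.0 and 20.8 CPM in 3D dSRF, against 49.5, 49.8 and 51.0 CPM in 3D control. In 2D it stood at 22.8, 22.0 and 23.8 CPM in 2D dSRF, against 39.3, 40.5 and 41.6 CPM in 2D control (difference -0.38 ± 0.07, adjusted p = 4.29e-04). For MRTFA the difference of 0.45 ± 0.57 did not pass with all libraries (adjusted p = 0.606) and was 0.94 without 3D dSRF 1 (adjusted p = 7.51e-11).

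Contractile genes of smooth muscle were mixed. Of 15 tested, 4 had a more positive and 2 a more negative effect (median 0.08), and 4 and 4 without 3D dSRF 1 (median -0.38). On log2(TPM + 1) values, from the deposited transcript abundances scaled to length and depth (TPM), the counts were 2 and 5. Over all 14986 genes on those values, 1354 were more positive and 1984 more negative. TAGLN, an actin cross-linker and a textbook SRF target, stood at 17.2, 4.32 and 3.21 CPM in 3D dSRF, against 7.95, 13.6 and 13.6 CPM in 3D control. On plates TAGLN stood at 17.8, 22.7 and 37.1 CPM in 2D dSRF, against 4.76, 5.33 and 3.81 CPM in 2D control. It was clearly higher with dSRF on plates, whereas on matrigel the groups overlapped through 3D dSRF 1 (difference -2.97 ± 0.59, adjusted p = 8.2e-04; -4.17 without that library). MYL9, a regulatory light chain of myosin II, had -0.81 ± 0.33 (adjusted p = 0.0780), and -1.36 without 3D dSRF 1 (adjusted p = 7.92e-05). ACTA2, smooth muscle actin, was higher with dSRF in both cultures, by 1.90 on matrigel and 2.48 on plates, and those effects did not differ at the threshold (-0.59 ± 0.34, adjusted p = 0.217).

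ACTG2, another smooth muscle actin, stood at 9.58, 1.17 and 0.0986 CPM in 3D dSRF, against 0 CPM in each 3D control library. In 2D it stood at 20.1, 28.2 and 48.1 CPM in 2D dSRF, against 0.0972, 0 and 0.0544 CPM in 2D control. Of these 12 libraries, all of 2D dSRF and 3D dSRF 1 and 2 were well above control, while 3D dSRF 3 was at the level of the highest control library. No fold is given because the control groups had 3 counts or fewer. In the lines with wild-type (WT) and dSAP MRTF-A, ACTG2 had means of 1374 CPM in 3D WT and 1092 CPM in 2D WT, and of 682.5 CPM in 3D dSAP and 548.8 CPM in 2D dSAP. CNN1, a calponin, stayed under 1 CPM in all 12 libraries, with at most 32 counts in a group. TPM1, a tropomyosin, had 0.74 ± 0.18 (adjusted p = 0.00422), which became 0.45 without 3D dSRF 1. MYLK, the kinase of myosin light chains, had 1.03 ± 0.26 (adjusted p = 0.00571), or 0.56 without 3D dSRF 1. TPM2 went the other way (-0.77 ± 0.19, adjusted p = 0.0046).

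The cytoskeletal MRTF/SRF targets found in most cells had more positive effects on matrigel in 17 of 30 and more negative ones in 2 (median 0.51; 16, 5 and 0.23 without 3D dSRF 1). VCL, which encodes the focal adhesion protein vinculin, stood at 563, 612 and 614 CPM in 3D dSRF, against 370, 378 and 366 CPM in 3D control. In 2D VCL stood at 613, 621 and 656 CPM in 2D dSRF, against 632, 634 and 658 CPM in 2D control. The control line was low on matrigel alone, the 2D groups overlapped, and 3D dSRF 1 was close to its partners (difference 0.71 ± 0.06, adjusted p = 6.73e-08). TLN1, talin, which links integrins to actin, had 0.55 ± 0.07 (adjusted p = 4.65e-06), with effects of 0.57 on matrigel and 0.01 on plates. ACTN1, the actin cross-linker alpha-actinin, had 0.69 ± 0.09 (adjusted p = 6.2e-06). Among 23 genes of Arp2/3 and actin assembly, 7 were more positive and 3 more negative (7 and 7 without 3D dSRF 1). Over all genes the shares were 14.7% and 14.6%, and 19.9% and 24% without 3D dSRF 1. CTTN, cortactin, which binds branched actin, had -0.62 ± 0.06 (adjusted p = 7.86e-07).

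By size alone, the genes above 1 CPM with the most positive differences included secreted and membrane proteins of varied function. DMBT1, a secreted mucosal glycoprotein, stood at 4.47, 11.5 and 12.6 CPM in 3D dSRF, against 0.638, 0.643 and 0.552 CPM in 3D control. On plates the order was opposite, with 7.45, 7.55 and 6.98 CPM in 2D dSRF, against 25.5, 40.8 and 27.0 CPM in 2D control. DMBT1 was therefore above control on matrigel and below it on plates, with no overlap in either (difference 6.03 ± 0.43, adjusted p = 7.19e-09). CLIC5, a chloride channel family protein bound to cortical actin, stood at 24.7, 42.4 and 44.3 CPM in 3D dSRF, against 0.754, 0.935 and 0.401 CPM in 3D control. It stood at 42.8, 42.4 and 43.9 CPM in 2D dSRF, against 15.4, 19.0 and 18.2 CPM in 2D control. CLIC5 held nearly one level in the dSRF line, and 3D control was far below all other groups (difference 4.45 ± 0.29, adjusted p = 2.69e-09).

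SOST, the Wnt antagonist sclerostin, had 5.23 ± 0.81 (adjusted p = 6.83e-05), with means of 1.27 CPM in 3D dSRF and 0.230 in 3D control, and of 1.35 in 2D dSRF and 9.31 in 2D control. PSG9, a pregnancy-specific glycoprotein, had 4.73 ± 0.38 (adjusted p = 3.29e-08), but near-identical family members make its counts uncertain. KISS1, the kisspeptin precursor, had 4.90 ± 1.06 (adjusted p = 0.00173) with a level of 9.03 CPM in 3D dSRF 1 and 0.587 and 0.838 CPM in 3D dSRF 2 and 3, and 2.58 without the first. NFATC4, a calcium-regulated transcription factor, showed the reverse: 0.301 CPM in 3D dSRF 1 and 28.4 and 25 CPM in 3D dSRF 2 and 3 (difference 4.57 ± 1.38, adjusted p = 0.0175; 5.15 without 3D dSRF 1). NPPB, a natriuretic peptide, stood at 14.1, 3.36 and 4.49 CPM in 3D dSRF, against 2 counts in all of 3D control. In 2D NPPB stood at 41.0, 45.7 and 48.7 CPM in 2D dSRF, against 8.84, 8.22 and 8.86 CPM in 2D control. Of the 14 most positive genes, 7 had a group with 3 counts or fewer, as did 6 of the 14 most negative, and no fold is given for them.

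Among the most negative genes was the chemokine CXCL10, described with the cytokines. PLEKHG4B, a guanine nucleotide exchange factor, stood at 0.473, 1.17 and 1.82 CPM in 3D dSRF, against 7.6, 10.2 and 10.9 CPM in 3D control. On plates PLEKHG4B was near 0 in both lines, with 0.209, 0.559 and 0.362 CPM in 2D dSRF, against 0.0972, 0.128 and 0.544 CPM in 2D control. The gene was thus high in one group, 3D control (difference -3.59 ± 0.82, adjusted p = 0.00249). ZNF540, a zinc finger protein, was below 3 CPM throughout and had -3.70 ± 0.43 (adjusted p = 2.81e-06). N4BP3 had -4.17 ± 0.68 (adjusted p = 1.16e-04) and SPNS2, a sphingosine-1-phosphate exporter, -4.06 ± 0.98 (adjusted p = 0.00387), with 5 and 6 counts over the 2D control libraries.

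Epithelial junction and keratin genes had more positive effects on matrigel in 14 of 26 and a more negative one in none (by the same test, median 0.88). Without 3D dSRF 1, 19 were more positive, none more negative, and the median was 1.05. On log2(TPM + 1) values 9 were more positive and none more negative. In 3D dSRF against 3D control 20 of the 26 were higher (35.1% of all genes) and none lower, and in 2D dSRF against 2D control 14 were higher (34.5% of all genes) and 5 lower. KRT7, a simple-epithelium keratin, stood at 409, 396 and 379 CPM in 3D dSRF, against 101, 106 and 104 CPM in 3D control. In 2D KRT7 stood at 280, 259 and 282 CPM in 2D dSRF, against 377, 380 and 408 CPM in 2D control. It was above control on matrigel and below it on plates, with close replicates in each group and 3D dSRF 1 among them (difference 2.43 ± 0.08, adjusted p = 7.99e-14).

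KRT18 stood at 1644, 3183 and 3209 CPM in 3D dSRF, against 111, 123 and 115 CPM in 3D control. On plates KRT18 stood at 2476, 2522 and 2245 CPM in 2D dSRF, against 269, 243 and 272 CPM in 2D control. The dSRF line was far above control in both cultures, by 4.52 on matrigel and 3.21 on plates, and the difference of 1.32 ± 0.22 passed (adjusted p = 1.39e-04). KRT8, its pairing partner, had 0.89 ± 0.16 (adjusted p = 2.77e-04). KRT80, another keratin, had 1.72 ± 0.09 (adjusted p = 3.72e-11), with effects of 1.07 on matrigel and -0.65 on plates. ESRP2, a splicing factor of epithelial cells, had 0.96 ± 0.15 (adjusted p = 7.4e-05), and PKP2, a desmosome plaque protein, 1.34 ± 0.31 (adjusted p = 0.00267), or 0.78 without 3D dSRF 1.

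The summed level of the luminal breast markers was mostly KRT8 and KRT18, which are in the list above, so it is not separate evidence. It stood at 5375, 9254 and 9360 CPM in 3D dSRF, against 499, 521 and 490 CPM in 3D control. On plates it was 7134, 7122 and 6733 CPM in 2D dSRF, against 852, 809 and 876 CPM in 2D control. Of 8 tested luminal markers 5 had a more positive effect (2 on log2(TPM + 1) values) and none a more negative one. KRT8, KRT18, CDH1 and EPCAM, among the 8, are also in the epithelial list. With dSRF, 6 of the 8 were higher and 1 lower on matrigel, and 6 and 2 on plates. Outside the keratins, FOXA1 and EPCAM had higher means with dSRF in both cultures. FOXA1 averaged 12.83 CPM in 3D dSRF and 0.01672 in 3D control, and 13.51 CPM in 2D dSRF and 0 in 2D control. EPCAM averaged 100.2 CPM in 3D dSRF and 15.97 in 3D control, and 92.01 CPM in 2D dSRF and 26.79 in 2D control. GATA3 was below control in both cultures, with means of 8.78 CPM in 3D dSRF and 16.8 in 3D control. On plates its means were 9.94 CPM in 2D dSRF and 27.1 in 2D control. ESR1 and PGR never exceeded 1 count. CDH1, the E-cadherin gene, averaged 0.366 CPM in 3D dSRF and 0.169 in 3D control, and 0.551 CPM in 2D dSRF and 1.74 in 2D control. Their part in the keratin result was not tested.

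Genes of DNA replication and repair moved the other way. The dSRF effect was more negative on matrigel for 26 of 36 and more positive for none (median -0.98), and for all 36 without 3D dSRF 1 (median -1.45). In the control line 28 of the 36 were higher on matrigel than on plates (23% of all genes) and none lower. In the dSRF line none was higher and 6 were lower with all libraries (9.84% of all genes), and 35 were lower without 3D dSRF 1. With that library left out, 48.2% of all genes changed with culture in the dSRF line, counting both directions. BRCA1, a homologous recombination factor, stood at 52.6, 47.09 and 50.04 CPM in 3D dSRF, against 126, 128 and 125 CPM in 3D control. On plates BRCA1 stood at 63.8, 66.8 and 64.2 CPM in 2D dSRF, against 65.5, 60.4 and 64.8 CPM in 2D control. The lines overlapped on plates and were well apart on matrigel, with an effect of -1.34 (difference -1.37 ± 0.07, adjusted p = 4.4e-11).

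PCNA, the sliding clamp of DNA polymerases, stood at 85.0, 46.87 and 49.99 CPM in 3D dSRF, against 230, 260 and 228 CPM in 3D control. In 2D PCNA stood at 60.1, 65.8 and 67.7 CPM in 2D dSRF, against 120, 117 and 118 CPM in 2D control. It was below control in both cultures, with effects of -1.98 on matrigel and -0.87 on plates (difference -1.11 ± 0.19, adjusted p = 2.48e-04; -1.44 without 3D dSRF 1). POLA1, the catalytic subunit of polymerase alpha, had -1.2 ± 0.08 (adjusted p = 3.89e-09). BRIP1, a helicase that binds BRCA1, had -1.47 ± 0.25 (adjusted p = 2.26e-04). CCNE1, cyclin E, had opposite effects, -0.89 on matrigel and 0.39 on plates (difference -1.28 ± 0.17, adjusted p = 9.19e-06).

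MCM6, a subunit of the replicative helicase, is shown by its promoter because E2F sites drive this gene family in S phase. The stretch is the 250 bases before the start at chr2:135876444-135876693 (RefSeq, GRCh38.p14, minus strand), with capitals for TTTNGCGC on either strand.
MCM6: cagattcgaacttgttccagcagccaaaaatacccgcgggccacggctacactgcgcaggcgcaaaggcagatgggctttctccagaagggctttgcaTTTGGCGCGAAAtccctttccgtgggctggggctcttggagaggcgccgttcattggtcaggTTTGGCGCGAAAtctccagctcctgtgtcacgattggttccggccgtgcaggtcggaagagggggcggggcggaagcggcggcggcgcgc
The 4 matches form 2 overlapping pairs, one on each strand in a pair, beginning 152 and 148, and 90 and 86, bases before the start. The motif was in the windows of 15 of 31 genes of the list (48.4%) and of 2.17% of all genes. Since the family is known for such sites, this share describes the list. MCM6 stood at 84.4, 58.2 and 62.1 CPM in 3D dSRF, against 174, 205 and 179 CPM in 3D control. On plates MCM6 stood at 72.6, 73.8 and 77.6 CPM in 2D dSRF, against 138, 132 and 135 CPM in 2D control. Both pairs of groups were separate, and the matrigel gap was the wider one (difference -0.59 ± 0.14, adjusted p = 0.00265).

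Mitosis genes were lower with dSRF in both cultures, all 31 in each (31.3% of all genes on matrigel, 31.5% on plates), and the effects differed for 9 of 31, all more negative on matrigel (median -0.60). Without 3D dSRF 1 this held for 30 of 31 (median -1.15), and on log2(TPM + 1) values for 17. NUSAP1, a spindle protein, averaged 41.9 ± 14.6 CPM in 3D dSRF and 199 ± 3.67 CPM in 3D control (SD, n = 3 each). On plates NUSAP1 averaged 68.8 ± 1.75 CPM in 2D dSRF and 185 ± 8.46 CPM in 2D control (SD, n = 3 each), for a difference of -0.82 ± 0.19 (adjusted p = 0.00255). CENPF, a kinetochore protein, had -0.42 ± 0.10 (adjusted p = 0.00305). Replication-dependent histone genes rested on one library: none of 13 passed with all libraries, and all 13 were more negative without 3D dSRF 1 (median -0.24 and -1.23). The labels disagree on whether the RNA was poly(A)-selected or rRNA-depleted total RNA, and most histone transcripts lack a poly(A) tail. H2BC5, a histone H2B gene, stood at 80.6, 26.4 and 27.5 CPM in 3D dSRF, against 228, 214 and 213 CPM in 3D control. In 2D H2BC5 stood at 41.3, 46.8 and 44.7 CPM in 2D dSRF, against 145, 148 and 157 CPM in 2D control. The library labelled 3D dSRF 1 held far more H2BC5 than its partners, and the difference was -0.52 ± 0.37 with it (adjusted p = 0.322) and -1.26 without it (adjusted p = 8.78e-10).

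**Figure D4:**
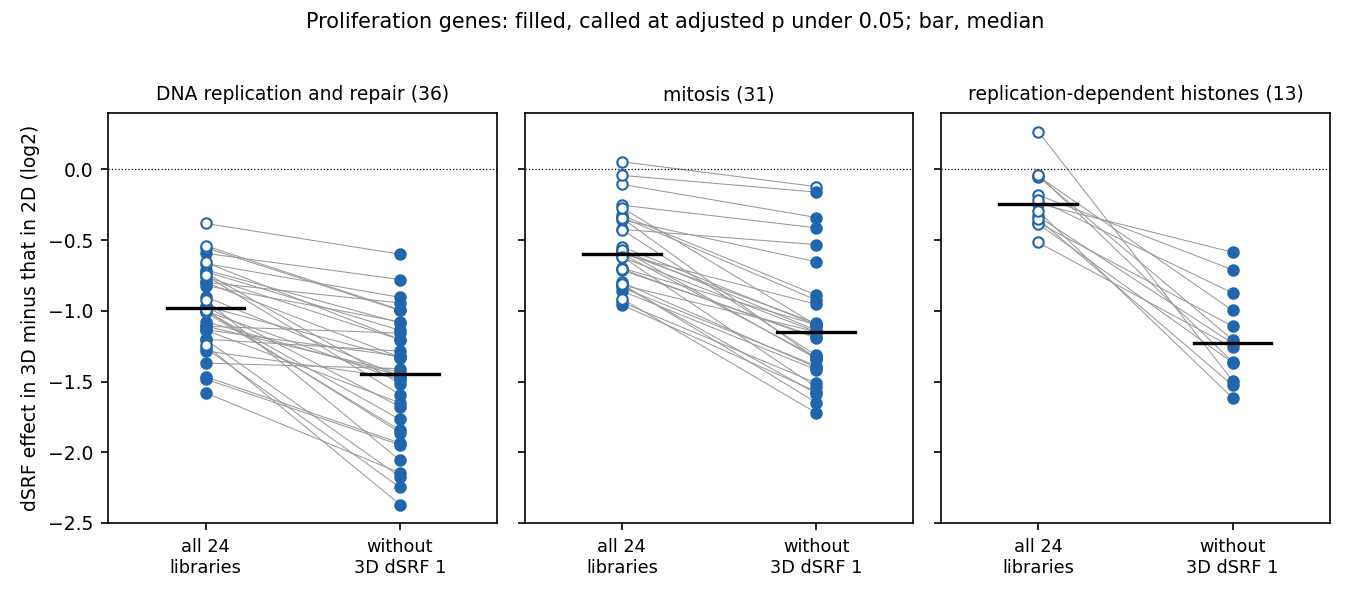
Each circle is a gene and gives the dSRF effect on matrigel minus that on plates (y axis, log2), fitted with all 24 libraries (left) and without the library labelled 3D dSRF 1 (right); lines join the same gene, filled circles passed an adjusted p under 0.05, and bars mark medians. The medians moved down in all 3 lists, by most for the 13 histone genes (-0.24 and -1.23).

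NF-kB feedback genes, which NF-kB induces and many of which shut it off, had more negative effects on matrigel in 10 of 16 and a more positive one in 1 (median -0.55; 13, 1 and -0.54 without 3D dSRF 1). In the control line 11 of the 16 were higher on matrigel than on plates and 1 was lower, against 23% and 24.4% of all genes. NFKBIA, the inhibitor IkB-alpha, stood at 247, 410 and 404 CPM in 3D dSRF, against 251, 260 and 255 CPM in 3D control. On plates NFKBIA stood at 341, 342 and 343 CPM in 2D dSRF, against 151, 150 and 140 CPM in 2D control. The library labelled 3D dSRF 1 lay at the control level, and the effect was 0.47 on matrigel and 1.22 on plates (difference -0.75 ± 0.16, adjusted p = 0.00144; -0.55 without that library). TRAF1, an adaptor of TNF receptors, had -1.45 ± 0.15 (adjusted p = 8.5e-07). NFKB1, which encodes the p50 subunit, had -0.55 ± 0.07 (adjusted p = 5.19e-06), and RELB, another subunit, -0.45 ± 0.10 (adjusted p = 0.00186).

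Cytokines and chemokines divided, with 2 of 18 more positive and 3 more negative (median 0.09), and 2 and 10 without 3D dSRF 1 (median -1.47). On log2(TPM + 1) values the counts were 2 and 5 (median -0.46). LIF, a cytokine of the interleukin 6 family, averaged 177 ± 10.6 CPM in 3D dSRF and 27.1 ± 0.903 CPM in 3D control (SD, n = 3 each). In 2D LIF averaged 144 ± 9.44 CPM in 2D dSRF and 42.4 ± 5.12 CPM in 2D control (SD, n = 3 each), for a difference of 0.95 ± 0.11 (adjusted p = 1.7e-06). IL11, of the same family, had effects of 1.4 on matrigel and -0.63 on plates (difference 2.03 ± 0.36, adjusted p = 3.38e-04). The IL11 effect on matrigel was 0.80 without 3D dSRF 1.

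Of 36 interferon response genes, 12 had a more negative and 4 a more positive effect on matrigel (median -0.16; 14, 5 and -0.11 without 3D dSRF 1). The promoter of CXCL10, a T cell chemokine from the cytokine list that interferons induce, is shown because it carries both an NF-kB and an interferon motif. The stretch is the 250 bases before the start at chr4:76023498-76023747 (RefSeq, GRCh38.p14, minus strand). Capitals mark the interferon motif (GAAA, any 2 bases, GAAA), 221 bases before the start, and then the NF-kB motif (GGGA, any 2 bases, TTCC), 177 bases before it, searched on both strands.
CXCL10: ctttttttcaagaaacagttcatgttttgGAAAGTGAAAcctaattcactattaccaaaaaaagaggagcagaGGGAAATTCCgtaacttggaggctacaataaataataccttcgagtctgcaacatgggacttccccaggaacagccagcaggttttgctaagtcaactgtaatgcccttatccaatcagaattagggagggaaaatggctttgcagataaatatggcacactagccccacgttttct
The interferon motif was in the windows of 20 of 29 interferon genes (69.0%) and 4.38% of all genes, the NF-kB motif in 9 of 14 NF-kB feedback genes (64.3%) and 1.97%. Both lists are made of textbook targets, so these shares describe the lists. CXCL10 was low throughout, at 0.344, 0.267 and 0.0493 CPM in 3D dSRF, against 1.74, 1.23 and 1.2 CPM in 3D control. In 2D CXCL10 stood at 0.487, 0.489 and 0.672 CPM in 2D dSRF, against 0.0972, 0.128 and 0.0544 CPM in 2D control, which held 5 counts in all. It was thus below control on matrigel and above it on plates (difference -5.11 ± 0.73, adjusted p = 4.48e-05).

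CXCL11, a chemokine for the same receptor, had effects of opposite sign too, -1.54 on matrigel and 1.93 on plates (difference -3.47 ± 0.49, adjusted p = 2.37e-05). OASL, an antiviral protein, had -1.91 ± 0.25 (adjusted p = 1.11e-05), with means of 3.52 CPM in 3D dSRF and 10.1 in 3D control, and of 5.43 in 2D dSRF and 4.07 in 2D control. IFIT3, another gene of the interferon list, had -0.99 ± 0.16 (adjusted p = 1.19e-04). IFI27 was one of the 4 genes that went the other way (0.59 ± 0.09, adjusted p = 3.69e-05).

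Matrix and adhesion genes were mixed. Of 28 interstitial matrix genes, 6 had a more positive and 4 a more negative effect (9 and 5 without 3D dSRF 1). Over all genes the shares were 14.7% and 14.6%, and 19.9% and 24% without 3D dSRF 1. TNC, the matricellular protein tenascin-C, stood at 20.4, 10.5 and 10.3 CPM in 3D dSRF, against 52.5, 62.2 and 59.3 CPM in 3D control. On plates TNC stood at 25.8, 33.5 and 53.3 CPM in 2D dSRF, against 18.42, 12.46 and 20.01 CPM in 2D control. The lines kept no common order: dSRF was below control on matrigel (effect -2.07) and above it on plates (effect 1.15), with a gap between the groups in each (difference -3.22 ± 0.34, adjusted p = 1.01e-06). FN1, fibronectin, had effects of 0.11 on matrigel (adjusted p = 0.619) and 1.6 on plates (difference -1.49 ± 0.26, adjusted p = 2.31e-04). The FN1 effect on matrigel turned to -0.31 without 3D dSRF 1 and passed (adjusted p = 0.0112). LOXL4, an enzyme that cross-links collagen, had 1.43 ± 0.15 (adjusted p = 1.06e-06), with effects of -0.15 on matrigel and -1.58 on plates.

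Of 20 basement membrane genes, 6 had a more positive and 3 a more negative effect (6 and 6 without 3D dSRF 1). Over all genes the shares were 14.7% and 14.6%, and 19.9% and 24% without 3D dSRF 1. COL4A1 and COL4A2, the chains of the main type IV collagen, had 0.93 ± 0.07 (adjusted p = 5.77e-09) and 0.85 ± 0.07 (adjusted p = 1.93e-08). LAMB3, a chain of laminin 332, had 0.98 ± 0.09 (adjusted p = 1.49e-07). Of 15 integrins, 5 were more positive and 2 more negative (3 and 2 on log2(TPM + 1) values). ITGB4, whose product binds laminin 332 in hemidesmosomes, had 1.18 ± 0.17 (adjusted p = 2.93e-05), while ITGAV and ITGA1 had -0.80 ± 0.09 (adjusted p = 1.77e-06) and -0.90 ± 0.12 (adjusted p = 1.31e-05).

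Of 24 tested matrix proteases and inhibitors, 8 had a more positive and 3 a more negative effect. PLAU, the urokinase plasminogen activator, stood at 1993, 2337 and 2275 CPM in 3D dSRF, against 176, 186 and 185 CPM in 3D control. In 2D PLAU stood at 1388, 1323 and 1244 CPM in 2D dSRF, against 431, 299 and 452 CPM in 2D control. The dSRF line was above control in both cultures with no overlap, by 3.59 on matrigel and 1.74 on plates (difference 1.85 ± 0.15, adjusted p = 3.41e-08). MMP14, a membrane-bound collagenase, had 0.60 ± 0.07 (adjusted p = 5.39e-06), and TIMP2, an inhibitor that binds it, 0.68 ± 0.07 (adjusted p = 8.14e-07).

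Stress, metal and lipid genes showed smaller groups. Of 20 NRF2 and iron genes, 6 had a more negative and 2 a more positive effect (median -0.35; 10, 2 and -0.34 without 3D dSRF 1). NQO1, a quinone reductase driven by NRF2, averaged 99.6 ± 2.36 CPM in 3D dSRF and 127 ± 14.1 CPM in 3D control (SD, n = 3 each). In 2D NQO1 averaged 110 ± 2.70 CPM in 2D dSRF and 47.0 ± 3.82 CPM in 2D control (SD, n = 3 each), so that dSRF was below control on matrigel and above it on plates (difference -1.59 ± 0.11, adjusted p = 2.74e-09). The ferritin chains FTH1 and FTL, which store iron, had -1.14 ± 0.11 (adjusted p = 2.9e-07) and -0.77 ± 0.08 (adjusted p = 9.3e-07). Of 6 metallothioneins, 3 had a more positive effect and none a more negative one (median 0.84 with and without 3D dSRF 1). MT1E, one of these metal-binding proteins, had 1.23 ± 0.13 (adjusted p = 1.31e-06), and MT1F had 1.48 ± 0.26 (adjusted p = 2.77e-04). The metallothionein genes are near-identical, so their single values are uncertain.

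Cholesterol and lipid synthesis genes had more positive effects in 12 of 31 and a more negative one in 1 (median 0.16; 18, 4 and 0.30 without 3D dSRF 1). FASN, fatty acid synthase, averaged 380 ± 58.0 CPM in 3D dSRF and 340 ± 27.4 CPM in 3D control (SD, n = 3 each). On plates FASN averaged 428 ± 28.6 CPM in 2D dSRF and 932 ± 35.8 CPM in 2D control (SD, n = 3 each), for a difference of 1.28 ± 0.12 (adjusted p = 1.1e-07). DHCR7, the last enzyme of cholesterol synthesis, had 0.90 ± 0.08 (adjusted p = 1.15e-07). ABCA1, a cholesterol exporter, had 1.15 ± 0.19 (adjusted p = 1.21e-04). With it, 4 of 7 genes of cholesterol efflux and LXR were more positive and none more negative. The 7 include the LXR genes NR1H2 and NR1H3 themselves.

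Of 26 ATF4 targets, the genes of the amino acid stress response, 10 had a more positive and 1 a more negative effect (median 0.34), and 10 and 4 without 3D dSRF 1 (median 0.10). CHAC1, which degrades glutathione, had 1.33 ± 0.22 (adjusted p = 1.24e-04) with effects of 4.26 on matrigel and 2.94 on plates. DDIT4, an inhibitor of mTORC1, had 1.35 ± 0.24 (adjusted p = 2.88e-04) with effects of -1.96 on matrigel and -3.31 on plates. PSAT1, an enzyme of serine synthesis, was the 1 more negative gene (-1.17 ± 0.10, adjusted p = 5.86e-08). Of 22 chaperones and unfolded protein response genes, 1 was more positive and 5 were more negative.

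Of 36 hypoxia and glycolysis genes, 9 had a more positive and 2 a more negative effect, and 12 and 9 without 3D dSRF 1 (9 and 5 on log2(TPM + 1) values). EGLN3, an oxygen-sensing hydroxylase, averaged 0.682 CPM in 3D dSRF and 17.1 CPM in 3D control, and 1.47 CPM in 2D dSRF and 11.5 CPM in 2D control (difference -1.69 ± 0.26, adjusted p = 5.44e-05). ENO1, the glycolytic enzyme enolase, had 0.63 ± 0.10 (adjusted p = 9.06e-05), its effects being -0.71 on matrigel and -1.34 on plates. Few genes of the respiratory chain and of cytosolic ribosomes passed: 0 of 22 were more positive and 1 more negative in the first list, and 2 of 31 and none in the second. Without 3D dSRF 1 they were 1 and 10, and 2 and 12.

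Signalling genes varied one by one. Of 30 immediate early genes, 9 had a more positive and 5 a more negative effect, against 14.7% and 14.6% of all genes. FOSB, an AP-1 subunit, stood at 4.04, 4.80 and 6.16 CPM in 3D dSRF, against 2.73, 1.99 and 2.46 CPM in 3D control. In 2D FOSB stood at 11.1, 9.86 and 10.6 CPM in 2D dSRF, against 0.680, 0.706 and 0.435 CPM in 2D control. It was above control in both cultures, far more on plates (difference -3.04 ± 0.26, adjusted p = 6.91e-08). NR4A1, an orphan nuclear receptor, had 1.66 ± 0.20 (adjusted p = 4.69e-06), and ATF3, a stress-induced factor, 1.06 ± 0.15 (adjusted p = 1.89e-05).

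PMEPA1, a TGF-beta target that dampens the pathway, stood at 104, 231 and 222 CPM in 3D dSRF, against 35.7, 42.9 and 42.9 CPM in 3D control. On plates PMEPA1 stood at 66.3, 61.3 and 66.4 CPM in 2D dSRF, against 59.4, 65.9 and 73.9 CPM in 2D control. The lines overlapped on plates and separated on matrigel (difference 2.23 ± 0.30, adjusted p = 1.57e-05). SKIL, another brake of TGF-beta signalling, had 0.88 ± 0.13 (adjusted p = 5.48e-05); in their list of 16, 3 genes were more positive and 4 more negative (median -0.13), and 6 and 5 without 3D dSRF 1 (median 0.11). Of 21 cell cycle inhibitors and p53 targets, 2 were more positive and 5 more negative (6 and 8 without 3D dSRF 1). CCND1, cyclin D1, had opposite effects of 0.65 on matrigel and -0.36 on plates (difference 1.00 ± 0.10, adjusted p = 5.88e-07). FAS, a death receptor, was above control in both, by 3.00 on matrigel and 4.49 on plates (difference -1.50 ± 0.22, adjusted p = 4.38e-05).

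Of 21 genes of EGF family ligands and receptor kinases, 7 were more positive and none more negative (7 and 4 without 3D dSRF 1, and 1 and none on log2(TPM + 1) values). ERBB3, a receptor of that family, had 1.13 ± 0.17 (adjusted p = 3.86e-05), and PDGFB, a growth factor chain, 2.36 ± 0.59 (adjusted p = 0.00522) with 4 counts in all of 3D control. In the Notch and Wnt list of 22, 5 genes were more positive and 5 more negative, against 14.7% and 14.6% of all genes. JAG1, a Notch ligand, had -1.11 ± 0.12 (adjusted p = 8.5e-07) and NOTCH2, a receptor, 0.62 ± 0.09 (adjusted p = 3.16e-05). WNT7B, a Wnt ligand, stood at 3.01, 9.29 and 9.32 CPM in 3D dSRF, against 53.2, 61.4 and 59.0 CPM in 3D control. On plates it averaged 4.80 CPM in 2D dSRF and 8.03 CPM in 2D control, so that only 3D control was high (difference -2.26 ± 0.43, adjusted p = 5.65e-04). TCF7, a Wnt pathway transcription factor, had -1.46 ± 0.17 (adjusted p = 3.04e-06). Of 26 lysosome and autophagy genes, 7 were more positive and 6 more negative; CTSB, the protease cathepsin B, had 1.21 ± 0.10 (adjusted p = 2.1e-08). MT-ND3, 1 of 2 mitochondrially encoded genes of 13 that were called (1 without 3D dSRF 1), had -0.84 ± 0.20 (adjusted p = 0.00423).

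Some genes were decided by the library labelled 3D dSRF 1. TCHH, trichohyalin, stood at 0.0859, 5.87 and 5.57 CPM in 3D dSRF, against 0.174, 0.175 and 0.301 CPM in 3D control. In 2D TCHH stood at 5.36, 5.38 and 4.81 CPM in 2D dSRF, against 0 CPM in each 2D control library. The library labelled 3D dSRF 1 was at the control level, and the adjusted p was 0.0762 with it and 0.00163 without it. FOXA2, an endoderm transcription factor, stood at 0.0859, 1.495 and 1.578 CPM in 3D dSRF, against 0 CPM in each 3D control library (adjusted p = 0.246, and 0.0475 without 3D dSRF 1). ZNF542P, a transcribed pseudogene, stood at 9.45, 1.98 and 1.58 CPM in 3D dSRF, against a mean of 0.836 CPM in 3D control. In 2D it averaged 12.7 CPM in 2D dSRF and 0.849 CPM in 2D control. Here 3D dSRF 1 was near the 2D dSRF level (difference -1.51 ± 0.67, adjusted p = 0.0987; -2.81 without it, adjusted p = 4.95e-08).

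The culture change of the dSRF line was also compared with that of the lines carrying WT and dSAP MRTF-A, 6 libraries each, as (3D dSRF minus 3D WT) minus (2D dSRF minus 2D WT) and likewise for dSAP; the control libraries cancel. The culture change of the dSRF line differed from that of the WT line for 4942 genes (33.0%), 2461 higher (16.4%) and 2481 lower (16.6%). From that of the dSAP line it differed for 4132 (27.6%), 1983 higher (13.2%) and 2149 lower (14.3%). On log2(TPM + 1) values the WT split was 1562 and 2482. Without 3D dSRF 1, 7118 of 15246 genes (46.7%) passed against WT, 3269 higher and 3849 lower. Against dSAP 6456 (42.3%) then passed, 2774 higher and 3682 lower. These tests use the same dSRF libraries as the test against control, so their values are given side by side.

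YAP/TEAD targets were higher in 14 and lower in 2 of 24 against WT, and higher in 16 and lower in 1 against dSAP. Without 3D dSRF 1 the counts against WT were 13 and 4, beside 3269 and 3849 of all 15246 genes. CCN1 had 2.22 ± 0.31 against WT (adjusted p = 2.35e-05) and 2.19 ± 0.31 against dSAP (adjusted p = 3.58e-05). VCL differed by 0.07 ± 0.06 against WT (adjusted p = 0.422) and 0.23 ± 0.06 against dSAP (adjusted p = 0.00787). SRF had -0.11 ± 0.12 against WT (adjusted p = 0.492) and 0.01 ± 0.12 against dSAP (adjusted p = 0.962); without 3D dSRF 1 the SRF value against WT was -0.28 and passed (adjusted p = 0.0017). Contractile genes were higher in 2 and lower in 8 of 15 against WT, and higher in 4 and lower in 6 against dSAP. ACTA2, not called against control, had -1.67 ± 0.25 against WT (adjusted p = 3.71e-05) and -1.59 ± 0.25 against dSAP (adjusted p = 8.65e-05).

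Epithelial and keratin genes were higher in 16 of 26 against WT and 14 against dSAP, and lower in none. KRT7 had 1.80 ± 0.08 against WT (adjusted p = 6.26e-12) and 1.88 ± 0.08 against dSAP (adjusted p = 4.18e-12). DNA replication genes were lower in 29 and 25 of 36 and higher in none, with BRCA1 at -1.5 ± 0.07 (adjusted p = 1.59e-11) and -1.51 ± 0.07 (adjusted p = 1.37e-11). Interferon genes were lower in 15 and higher in 3 of 36 against WT, and lower in 18 and higher in 2 against dSAP. With 3D dSRF 1 left out they were lower in 17 and higher in 6 against WT, and lower in 19 and higher in 4 against dSAP. Of all 15246 genes in that fit, 3849 were lower and 3269 higher against WT. Against dSAP 3682 were lower and 2774 higher. GBP4, an interferon-induced GTPase, had -4.72 ± 0.44 against WT (adjusted p = 1.48e-07), and IFI44L, another interferon gene, -4.37 ± 0.80 against dSAP (adjusted p = 3.73e-04). Cholesterol synthesis genes were higher in 21 and lower in 1 of 31 against WT, and higher in 19 and lower in none against dSAP. ANO2, a calcium-activated chloride channel, had 3.64 ± 0.40 against WT (adjusted p = 1.14e-06) and 3.78 ± 0.40 against dSAP (adjusted p = 8.86e-07), and stood at means of 12.3 CPM in 3D dSRF and 15.2 CPM in 2D dSRF.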

How the data were processed

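RNA of 24 libraries was sequenced. Per the labels' protocols the libraries were stranded and made from total RNA after ribosomal RNA depletion, whereas the labels' molecule field gives polyA RNA. The authors checked reads with FastQC and quantified transcripts with Salmon, with hg38 given as the genome build, per the submitters' processing notes. They deposited estimated counts per gene, 26.27% of them not whole, and a table of TPM values, in which library depth is divided out. Symbols came from a reference list of gene names, and positions and biotypes from GENCODE 29.

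Counts were rounded, filtered with filterByExpr and scaled by TMM, and 8 group means were fitted to all 24 libraries (16 residual degrees of freedom) with edgeR 4.0.16 (glmQLFit, robust; glmQLFTest) in R 4.3.3. P-values were adjusted by Benjamini-Hochberg over 14986 of 37247 genes, and genes with an adjusted p under 0.05 were called. Standard errors are the log2 difference over the square root of F. CPM values use TMM-scaled totals. A fold was given only where every group held over 3 counts, except to show a change of sign between settings. One count equals 0.0716 CPM in the smallest library. The biological coefficient of variation was 13.07%. Alternatives were DESeq2 1.42.0, RLE size factors, no filter, limma 3.58.1 on log2(TPM + 1) and log2(TPM + 0.1), a replicate block, the 12 dSRF and control libraries alone, and each of the 12 left out in turn. The scripts were tested on simulated data.

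Named genes were the 14 most positive and 14 most negative called both with and without 3D dSRF 1. Each had a mean of at least 1 CPM in a group and lay outside the MHC. Each also kept its sign when any 1 of the 12 libraries was left out. Under like conditions came 5 each way called only without 3D dSRF 1, and the 5 most extreme each way against WT and dSAP. The rest were 12 fixed genes and up to 6 of lowest p per list. Not all are printed, and some items are not reported here. The members and the 41 gene lists were chosen with earlier results of these data known. One list, of nuclear retained RNAs, matched no gene. Samples with the same replicate number were not treated as pairs, and the labels do not say whether they were. Their deviations from group means correlated by -0.131 to 0.0553, which with 3 libraries a group cannot settle it. The estimated counts do not separate transgene from endogenous MRTFA.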

Additional observations from a re-analysis of the deposited data

Results flagged for a closer look

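The dSRF effect differed between matrigel and plates, by a test of the difference itself, for 2197 genes with a more positive effect on matrigel and 2182 with a more negative one. The same kind of test found that the culture change of the dSRF line differed from that of the WT line for 4942 genes and from that of the dSAP line for 4132. Of the 12 genes listed by name in the rule for named genes, 6 had such a difference on the log2 scale: CCN1 (3.18), CCN2 (2.24) and VCL (0.71) had a more positive effect on matrigel, and TNC (-3.22), TAGLN (-2.97) and MRTFB (-0.38) a more negative one. For CCN2 the library labelled 3D dSRF 1 weighed heavily on the value, which was 1.07 without it. Groups of 3 libraries are too small for a test of single outlying libraries, and the distance of 3D dSRF 1 was described by its share of the group's difference.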

How the results depend on the processing

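The count of genes with a more positive effect on matrigel was 1354 on log2(TPM + 1) and 1322 on log2(TPM + 0.1). With the 12 dSRF and control libraries alone it was 1427, and that of more negative genes was 1215. The fit to 12 libraries has fewer residual degrees of freedom and its own estimate of spread. The cause of its lower counts was not tested. Leaving out 1 library at a time gave 1855 to 3027 more positive genes, 1824 to 3653 more negative ones, 9418 to 11098 genes with an effect on matrigel, 9223 to 10979 on plates, 4295 to 7118 against WT and 3475 to 6456 against dSAP. The highest count of each came without 3D dSRF 1. With a replicate block, though the labels do not say that the numbers pair the libraries, 2080 and 2123 genes were called. In all, 3 genes with no call or no fold given changed sign, and the cause was not tested. MRTFA had -0.19 on either TPM scale (-0.191 and -0.189). ACTG2 had -3.43 and -3.56 on the TPM scales, where limma called it (adjusted p = 0.00193 and 0.0333), and -2.58 to 0.63 with 1 library left out. With 0 counts in 3D control, these ACTG2 values show a change of sign and are not folds. CNN1 had -0.19 and -0.33, and -3.04 to 2.96. Of 107 genes with a fitted difference, 89 kept their direction and their side of the threshold under every alternative run. Many of these genes were chosen by low p or for keeping their sign with 1 library left out. That share was therefore partly fixed in advance and does not measure robustness. Depth limits the genes near 0 in a group, where no fold is given.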
